A study of Mus musculus with 8 samples.

Results

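The 38 genes described here encode enzymes of pyruvate entry into the citric acid cycle, of the cycle itself, of the aspartate shuttle and of branched-chain amino acid oxidation. They were chosen by gene symbol, and all 38 were found among the 21970 genes of the deposited ventricle table. Of these, 21 belong to pyruvate entry, the cycle or the shuttle, and 17 to the breakdown of leucine, valine and isoleucine. The study sequenced poly(A)-selected RNA from the whole ventricle of C57BL/6J mice. There were 2 libraries for each of 4 stages, named here by the day after birth as P3, P6, P12 and P24. No treatment, transgene or mutation is named for any group, and all groups share the strain and the tissue. The comparison of stages asks how ventricular gene expression changes over the weeks after birth.

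Pyruvate enters mitochondria and is turned into acetyl-CoA by the pyruvate dehydrogenase complex, and citrate synthase joins that acetyl-CoA to oxaloacetate to start the citric acid cycle. The cycle oxidises it to carbon dioxide and yields the reduced cofactors that feed the respiratory chain, on which the beating heart depends for ATP. Leucine, valine and isoleucine lose their amino group to Bcat2, pass through the branched-chain ketoacid dehydrogenase complex and then follow separate arms, which end in acetyl-CoA or, through propionyl-CoA, in the cycle intermediate succinyl-CoA.

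Each library held between 23375967 and 28745112 reads assigned to genes. Labels do not say whether the 2 libraries of a stage came from separate animals, and the p-values below reflect the scatter among the libraries alone. The 2 P6 libraries stood apart from each other. Across all genes tested their median absolute difference was 0.39 on the log2 scale, and across the 38 genes it was 0.48, against 0.13 at P3, 0.08 at P12 and 0.07 at P24. Among the 38 genes, 33 were higher in P6 replicate 2 than in P6 replicate 1. That count was not particular to P6, being 34 at P3, 16 at P12 and 20 at P24. The median log2 difference of replicate 2 from replicate 1 over the 38 genes was 0.47 at P6 and 0.12 at P3. The difference between the P6 libraries moved with gene length. Its median was 0.59 in the shortest 10% of genes and -0.48 in the longest 10%. Reads of Y-linked genes were found in P6 replicate 1, P12 replicate 1 and P24 replicate 2, with sums of 5799, 7568 and 6469 normalized counts, and reached at most 4.22 in the other libraries. The 2 libraries of P6, of P12 and of P24 thus differed in Y-linked reads and were not repeats of the same RNA; for P3 this could not be told, since both libraries were low. In fits with a term for Y-linked reads or with a length trend removed, 36 and 35 of the 38 genes were called from P3 to P24, against 33 without. Of all genes tested, 36.6% and 43.0% were called in these fits, against 36.9% without.

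From P3 to P24, 33 of the 38 genes rose and none fell, where 18.7% of the 14055 genes tested rose and 18.2% fell (36.9% called in all; limma on log2 normalized counts, Benjamini-Hochberg (BH) adjusted p below 0.05 over all genes). All 38 passed the filter on low values. The median log2 change of the 38 was 0.99, between 0.16 for Bckdk and 2.0 for Bckdha, against -0.02 for all genes tested. Of the 21 genes of pyruvate entry, the cycle and the shuttle, 18 rose, with a median of 0.76; of the 17 branched-chain genes, 15 rose, with a median of 1.30. Idh2, Idh3g, Mdh1, Bckdk and Acad8 did not pass. For every one of the 38 genes both P24 libraries lay above both P3 libraries, as they did for 38.6% of all genes tested, while 39.9% had both below. In bulk tissue, more cells of a type and more RNA per cell cannot be told apart.

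With each library left out in turn, 13 of the 15 branched-chain calls and 7 of the 18 others held in all 8 fits. Those lost in at least 1 fit were Pdhb, Pdhx, Idh3a, Idh3b, Ogdh, Dlst, Dld, Suclg1, Suclg2, Fh1, Mdh2, Hibch and Mcee. Without P3 replicate 1, 20 genes were called in all, where 22.7% of all genes were. Without P24 replicate 1 or 2, 21 genes were called each time, against 21.6% and 22% of all genes. Relative to the P3 mean, the median of the 38 genes was 0.04 and 0.48 (log2) in the 2 P6 libraries, 0.70 in both P12 libraries and 1.00 and 0.99 in the P24 libraries.

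**Figure D1:**
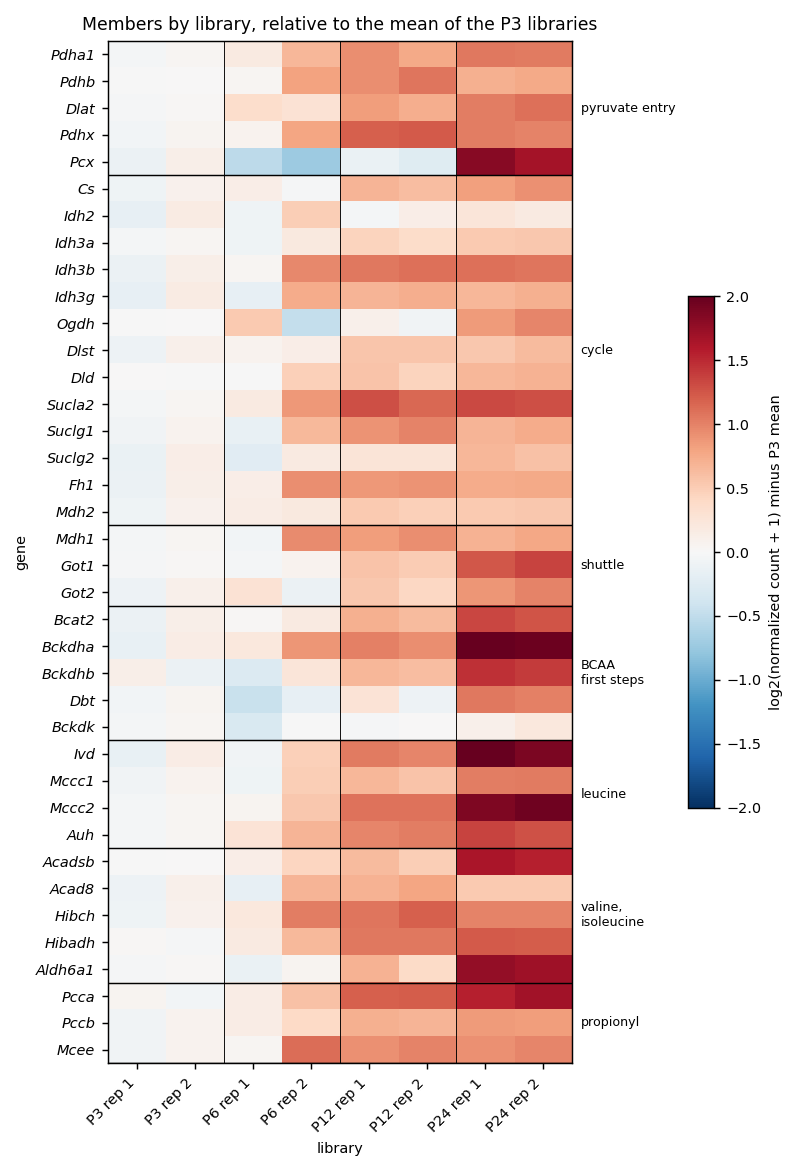
Heat map of the 38 genes (rows, ordered by role) in the 8 libraries (columns), coloured by log2 normalized count relative to the gene's P3 mean. All 38 genes are above their P3 mean at P24. The 2 P6 libraries differ, with 33 genes higher in replicate 2, against 34 by a smaller median difference at P3.

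**Figure D2:**
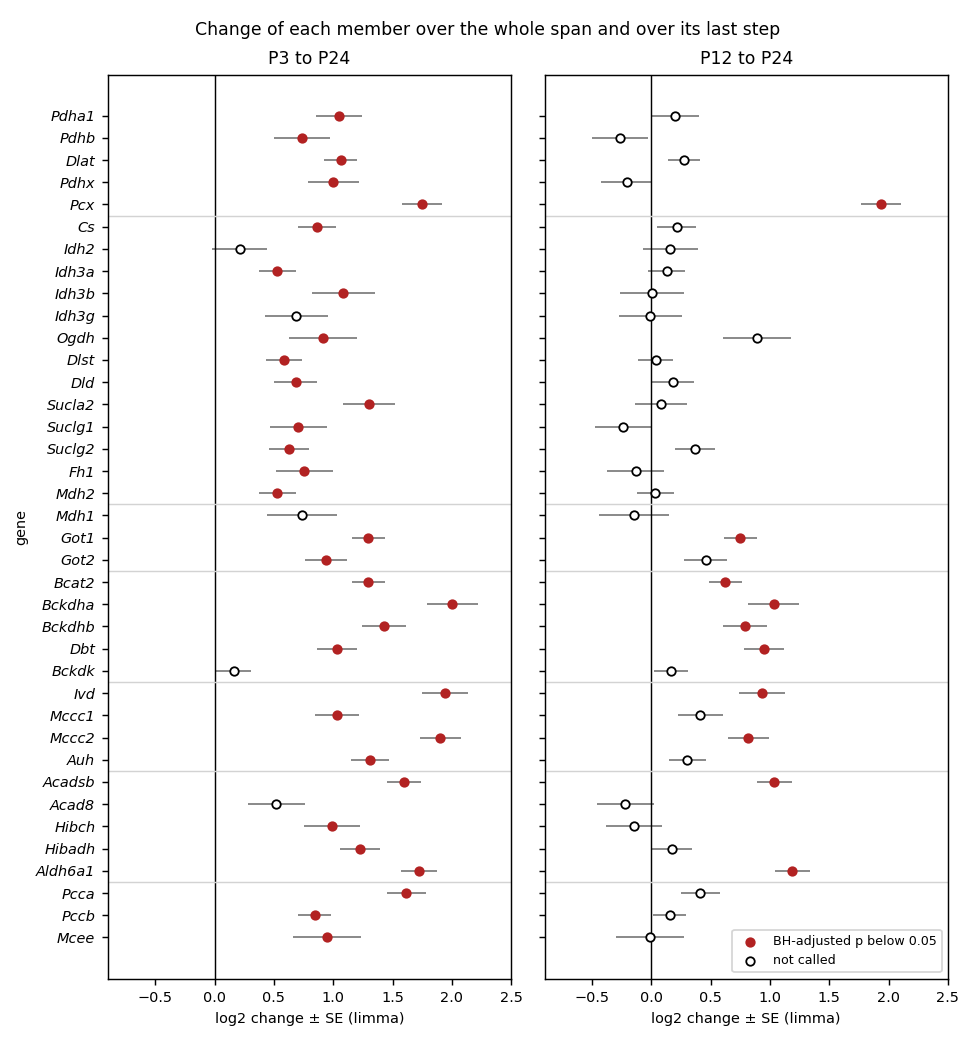
Log2 change of each gene with its standard error on the log2 (normalized count + 1) scale, ordered by role, from P3 to P24 (left) and from P12 to P24 (right). Filled points passed (limma, BH-adjusted p below 0.05): 33 genes on the left and 10 on the right, of which 8 are branched-chain genes.

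Promoter windows are shown for 4 genes, because 3 of them hold a motif of a regulator of mitochondrial genes and Bckdha had the largest change and holds none of them. The windows are the 250 bases before the RefSeq start site on the sense strand of each gene, in GRCm38.p6. Capitals mark AAGGTCA in Got1, CTTCCGG (the reverse complement of CCGGAAG) in Auh, and AAGATGGC and CCGGAAG in Idh3g. The windows lie on the minus strand at chr19:43524606-43524855 (Got1), chr13:52929678-52929927 (Auh), chrX:73786898-73787147 (Idh3g) and chr7:25658762-25659011 (Bckdha).
Got1: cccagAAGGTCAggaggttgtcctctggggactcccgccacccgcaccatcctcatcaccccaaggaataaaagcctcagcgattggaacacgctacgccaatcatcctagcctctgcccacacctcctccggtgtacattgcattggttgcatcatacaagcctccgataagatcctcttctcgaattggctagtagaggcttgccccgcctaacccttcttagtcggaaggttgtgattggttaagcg
Auh: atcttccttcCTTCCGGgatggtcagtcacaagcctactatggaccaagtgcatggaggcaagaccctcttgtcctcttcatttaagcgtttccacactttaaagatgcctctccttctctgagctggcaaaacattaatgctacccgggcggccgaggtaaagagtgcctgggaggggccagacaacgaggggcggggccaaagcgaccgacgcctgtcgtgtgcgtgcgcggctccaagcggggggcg
Idh3g: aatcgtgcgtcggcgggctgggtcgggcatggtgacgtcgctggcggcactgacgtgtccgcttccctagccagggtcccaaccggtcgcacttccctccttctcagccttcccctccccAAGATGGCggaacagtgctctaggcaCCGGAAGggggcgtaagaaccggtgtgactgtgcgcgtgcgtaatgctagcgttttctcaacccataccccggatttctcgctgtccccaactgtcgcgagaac
Bckdha: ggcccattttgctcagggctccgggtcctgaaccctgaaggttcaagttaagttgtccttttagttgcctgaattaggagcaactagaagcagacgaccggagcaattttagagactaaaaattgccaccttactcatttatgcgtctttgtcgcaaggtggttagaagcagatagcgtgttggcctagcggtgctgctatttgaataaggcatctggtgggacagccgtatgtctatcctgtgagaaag
Both strands were searched. Of the 38 genes, 36 had a window. AAGGTCA, a nuclear receptor half-site that carries the AA of the estrogen-related receptor element, was present in 1 of the 36, Got1, 245 bases before the start, and in 3.51% of the windows of all genes tested that had one. The longer form TCAAGGTCA, which contains it, was in none of the 36 and in 0.307% of all. CCGGAAG, the core bound by ETS family factors such as GABPA, was in 2 of the 36, Auh at 240 bases and Idh3g at 104 bases before the start, against 14.6% of all windows. AAGATGGC, the YY1 motif, was in Idh3g alone at 130 bases, against 2.23%, and the palindromic NRF1 motif was in none, against 1.74%. A match is a description of these letters, and an absence says nothing of binding elsewhere.

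All 5 genes of pyruvate entry rose from P3 to P24. Pdha1 and Pdhb encode the subunits of the decarboxylating E1 component, Dlat the acetyltransferase E2, and Pdhx the protein that binds E3. Pdha1 (ENSMUSG00000031299.11) stood at 23130.0 and 24517 (P3), 27081 and 37591 (P6), 45355 and 40188 (P12), and 49597 and 48683 (P24) normalized counts. Both P12 and both P24 libraries lay above all earlier ones. Pdha1 rose from P3 to P24 (2.06-fold, log2 change 1.05 ± 0.19 SE; limma, BH-adjusted p = 0.00308). The libraries held 7076 and 7232 (P3), 9125 and 8697 (P6), 12833 and 11856 (P12), and 14491 and 15394 (P24) normalized counts of Dlat (ENSMUSG00000000168.11). Dlat rose from P3 to P24 (2.09-fold, log2 change 1.06 ± 0.14 SE; limma, BH-adjusted p = 0.000401). Pdhb and Pdhx had their highest means at P12. Pdhb (ENSMUSG00000021748.10) stood at 17708 and 17960.5 (P3), 18337 and 31249 (P6), 34126 and 37258 (P12), and 29284 and 30042 (P24) normalized counts. Pdhb rose from P3 to P24 (1.66-fold, log2 change 0.73 ± 0.24 SE; limma, BH-adjusted p = 0.0374). The libraries held 2648 and 2845 (P3), 2868 and 4728 (P6), 6296 and 6402 (P12), and 5551 and 5436 (P24) normalized counts of Pdhx (ENSMUSG00000010914.11). Its 2 P24 libraries lay below both P12 libraries. Pdhx rose from P3 to P24 (2.0-fold, log2 change 1.00 ± 0.21 SE; limma, BH-adjusted p = 0.00596).

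Pcx encodes pyruvate carboxylase, which makes oxaloacetate from pyruvate and was the lowest of the 38 genes per length, at 1.75 FPKM at P3 and 5.88 FPKM at P24. Pcx (ENSMUSG00000024892.18) stood at 215 and 251 (P3), 161 and 140.3 (P6), 212 and 197 (P12), and 828 and 740.3 (P24) normalized counts. The 6 earlier libraries lay between 140.3 and 251, and both P24 libraries lay far above them. Pcx rose from P3 to P24 (3.36-fold, log2 change 1.75 ± 0.17 SE; limma, BH-adjusted p = 7.39e-05). Pcx rose from P12 to P24 (3.82-fold, log2 change 1.93 ± 0.17 SE; limma, BH-adjusted p = 0.000117). It held this call in all 8 fits that leave out a library.

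In the cycle itself, 11 of 13 genes passed from P3 to P24. Cs encodes citrate synthase. For Cs (ENSMUSG00000005683.9), the normalized counts were 25449 and 28725 (P3), 29553 and 26565 (P6), 43249 and 41611 (P12), and 47719 and 50685 (P24). Cs rose from P3 to P24 (1.82-fold, log2 change 0.86 ± 0.16 SE; limma, BH-adjusted p = 0.00334). Isocitrate dehydrogenase has an NADP-linked form, Idh2, and an NAD-linked form of 3 kinds of subunit, Idh3a, Idh3b and Idh3g. Normalized counts of Idh2 (ENSMUSG00000030541.17) were 43109 and 53682 (P3), 45394 and 67475 (P6), 46988 and 52694 (P12), and 57005 and 54288 (P24). P6 replicate 2 was the highest library and P3 replicate 1 the lowest. The log2 change of Idh2 from P3 to P24 was 0.21 ± 0.23 (SE), which did not pass (limma, BH-adjusted p = 0.506). Its log2 change was -0.14 when libraries were scaled by total reads alone. For Idh3b (ENSMUSG00000027406.14), the normalized counts were 13638 and 15977 (P3), 15163 and 28803 (P6), 30675 and 31834 (P12), and 31528 and 31128 (P24). Idh3b rose from P3 to P24 (2.12-fold, log2 change 1.09 ± 0.27 SE; limma, BH-adjusted p = 0.0124). Normalized counts of Idh3a (ENSMUSG00000032279.12) were 14413 and 15121 (P3), 13911 and 16909 (P6), 20012 and 18950.3 (P12), and 21253 and 21359.9 (P24). Idh3a rose from P3 to P24 (1.44-fold, log2 change 0.53 ± 0.16 SE; limma, BH-adjusted p = 0.0261). For Idh3g (ENSMUSG00000002010.18), the normalized counts were 9889.8 and 12370.3 (P3), 9835 and 18404 (P6), 17678 and 18254 (P12), and 17488 and 18192 (P24). The P3 libraries of Idh3g lay below both P12 and both P24 libraries, and P6 replicate 1 lay just below P3. The log2 change of Idh3g from P3 to P24 was 0.69 ± 0.27 (SE), which did not pass (limma, BH-adjusted p = 0.0722).

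Ogdh, Dlst and Dld encode the oxoglutarate dehydrogenase complex, whose E3 subunit Dld is also shared with the pyruvate and branched-chain complexes. Normalized counts of Ogdh (ENSMUSG00000020456.18) were 25396 and 25424 (P3), 36497 and 18294 (P6), 27363 and 24279 (P12), and 45800.5 and 49944 (P24). The 2 P6 libraries of Ogdh differed about as much as P3 did from P24, in the opposite direction from most of the 38 genes. Ogdh rose from P3 to P24 (1.88-fold, log2 change 0.91 ± 0.28 SE; limma, BH-adjusted p = 0.0332). For Dlst (ENSMUSG00000004789.11), the normalized counts were 14445 and 16466 (P3), 16163 and 16855 (P6), 22568 and 22543 (P12), and 22502 and 23796 (P24). Dlst rose from P3 to P24 (1.5-fold, log2 change 0.59 ± 0.15 SE; limma, BH-adjusted p = 0.0139). Sucla2 and Suclg2 encode the ATP- and GTP-specific beta subunits of succinyl-CoA ligase, and Suclg1 the alpha subunit that pairs with either. Normalized counts of Sucla2 (ENSMUSG00000022110.14) were 11378 and 11919.5 (P3), 13136 and 21165 (P6), 28436 and 25789.8 (P12), and 28976 and 28435 (P24). Sucla2 rose from P3 to P24 (2.46-fold, log2 change 1.30 ± 0.22 SE; limma, BH-adjusted p = 0.00179). For Suclg2 (ENSMUSG00000061838.8), the normalized counts were 3436 and 4124 (P3), 3226 and 4259 (P6), 4488 and 4524 (P12), and 5980.1 and 5663 (P24). Both P24 libraries of Suclg2 exceeded both P12 libraries. Suclg2 rose from P3 to P24 (1.55-fold, log2 change 0.63 ± 0.17 SE; limma, BH-adjusted p = 0.0179). Dld and Suclg1 rose by 0.68 ± 0.18 and 0.71 ± 0.24 on the log2 scale, with BH-adjusted p-values of 0.0170 and 0.0437 in limma. Suclg1 had both P24 libraries below both P12 libraries. Fh1 (fumarase) and Mdh2 (mitochondrial malate dehydrogenase) also rose, by 0.76 ± 0.24 and 0.53 ± 0.16 on the log2 scale, with BH-adjusted p-values of 0.0353 and 0.0263 in limma.

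**Figure D3:**
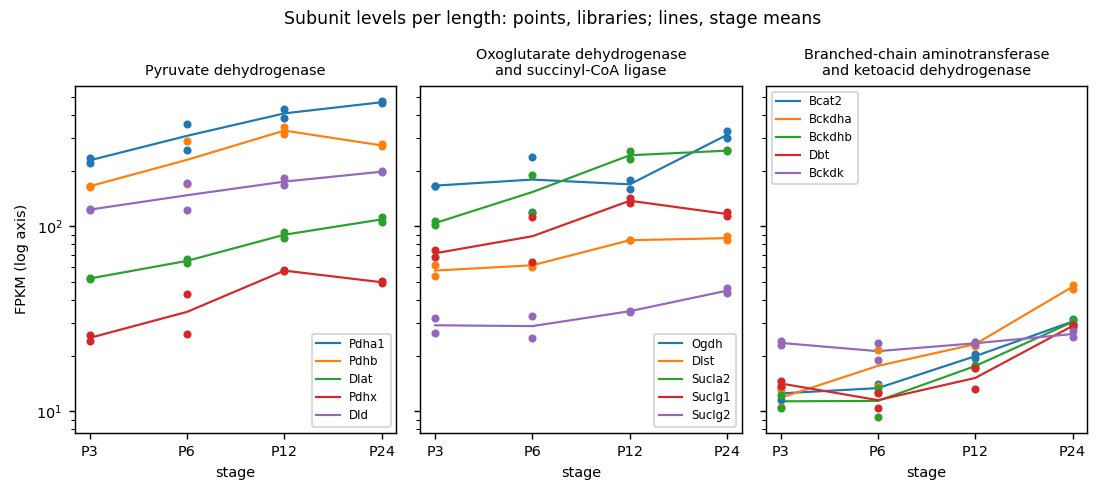
FPKM (log axis) of the subunits of the pyruvate dehydrogenase complex, of the oxoglutarate dehydrogenase complex with succinyl-CoA ligase, and of the branched-chain aminotransferase and ketoacid dehydrogenase, by stage. Points are libraries and lines join stage means; the means at P3 and P24 are 23.4 and 26.2 for Bckdk and 11.8 and 47.2 for Bckdha.

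The malate-aspartate shuttle carries reducing equivalents into mitochondria through the cytosolic enzymes Mdh1 and Got1 and the mitochondrial Mdh2 and Got2. Mdh1 had the highest level per length of the 38 genes, with means of 723 FPKM at P3 and 1205 FPKM at P24. Normalized counts of Mdh1 (ENSMUSG00000020321.17) were 52716 and 55276 (P3), 52017 and 104031 (P6), 96240.3 and 102709 (P12), and 87684 and 92241 (P24). P6 replicate 1 was the lowest of the 8 libraries and P6 replicate 2 the highest. The log2 change of Mdh1 from P3 to P24 was 0.74 ± 0.30 (SE), which did not pass (limma, BH-adjusted p = 0.0820). This SE drew on the scatter within all stages, P6 included. For Got1 (ENSMUSG00000025190.14), the normalized counts were 9111 and 9455 (P3), 9077 and 9749 (P6), 13848 and 13259 (P12), and 21992 and 23569.8 (P24). Got1 rose from P3 to P24 (2.45-fold, log2 change 1.29 ± 0.14 SE; limma, BH-adjusted p = 0.000142). Got1 rose from P12 to P24 (1.68-fold, log2 change 0.75 ± 0.14 SE; limma, BH-adjusted p = 0.00824). The libraries held 12277 and 14244 (P3), 16073 and 12146 (P6), 19267 and 17663 (P12), and 24363 and 26326 (P24) normalized counts of Got2 (ENSMUSG00000031672.9). Got2 rose from P3 to P24 (1.92-fold, log2 change 0.94 ± 0.18 SE; limma, BH-adjusted p = 0.00357).

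Branched-chain oxidation begins with Bcat2, the mitochondrial aminotransferase, followed by the complex of Bckdha and Bckdhb (E1) and Dbt (E2). All 4 rose from P3 to P24, and all 4 also rose from P12 to P24. Bckdha (ENSMUSG00000060376.8) stood at 561 and 696 (P3), 725 and 1148 (P6), 1259 and 1195 (P12), and 2578 and 2444 (P24) normalized counts. Every library of a later stage exceeded every library of an earlier one. Bckdha rose from P3 to P24 (4.01-fold, log2 change 2.0 ± 0.22 SE; limma, BH-adjusted p = 0.000143). Bckdha rose from P12 to P24 (2.04-fold, log2 change 1.03 ± 0.22 SE; limma, BH-adjusted p = 0.0140). For Bckdhb (ENSMUSG00000032263.15), the normalized counts were 621 and 524 (P3), 472 and 678 (P6), 905 and 872 (P12), and 1568 and 1509 (P24). Bckdhb rose from P3 to P24 (2.69-fold, log2 change 1.43 ± 0.19 SE; limma, BH-adjusted p = 0.000456). Normalized counts of Dbt (ENSMUSG00000000340.11) were 1279.6 and 1374 (P3), 972 and 1184 (P6), 1607 and 1234 (P12), and 2752 and 2682 (P24). The P6 libraries of Dbt were the lowest 2 of the 8. Dbt rose from P3 to P24 (2.05-fold, log2 change 1.03 ± 0.17 SE; limma, BH-adjusted p = 0.00150). For Bcat2 (ENSMUSG00000030826.20), the normalized counts were 1257 and 1473 (P3), 1381 and 1535 (P6), 2221 and 2119 (P12), and 3433 and 3254 (P24). Bcat2 rose from P3 to P24 (2.46-fold, log2 change 1.30 ± 0.14 SE; limma, BH-adjusted p = 0.000148). Bckdk encodes the kinase that phosphorylates and switches off the complex. Normalized counts of Bckdk (ENSMUSG00000030802.15) were 2370.4 and 2482 (P3), 1966 and 2412 (P6), 2380.3 and 2451 (P12), and 2609 and 2811 (P24). The 8 libraries spanned 1966 to 2811, and P24 lay at the top of that range. The log2 change of Bckdk from P3 to P24 was 0.16 ± 0.14 (SE), which did not pass (limma, BH-adjusted p = 0.421). Scaled by total reads alone its log2 change was -0.19.

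In the leucine arm all 4 genes rose. Ivd encodes isovaleryl-CoA dehydrogenase, Mccc1 and Mccc2 the subunits of methylcrotonyl-CoA carboxylase, and Auh the hydratase that follows it. For Ivd (ENSMUSG00000027332.12), the normalized counts were 2845 and 3464 (P3), 2975 and 4364 (P6), 6468 and 6183 (P12), and 12597 and 11578 (P24). Ivd rose from P3 to P24 (3.85-fold, log2 change 1.94 ± 0.20 SE; limma, BH-adjusted p = 9.91e-05). Ivd rose from P12 to P24 (1.91-fold, log2 change 0.93 ± 0.20 SE; limma, BH-adjusted p = 0.0144). The libraries held 576 and 613 (P3), 615 and 860.3 (P6), 1258 and 1267 (P12), and 2166 and 2289 (P24) normalized counts of Mccc2 (ENSMUSG00000021646.10). Mccc2 rose from P3 to P24 (3.74-fold, log2 change 1.90 ± 0.17 SE; limma, BH-adjusted p = 5.23e-05). The P24 libraries of both genes lay above the P12 libraries. Mccc1 (ENSMUSG00000027709.10) stood at 2137 and 2373 (P3), 2130.3 and 3176 (P6), 3561 and 3360.0 (P12), and 4560.3 and 4651 (P24) normalized counts. Mccc1 rose from P3 to P24 (2.04-fold, log2 change 1.03 ± 0.19 SE; limma, BH-adjusted p = 0.00274). The libraries held 849 and 902 (P3), 1054 and 1398 (P6), 1726 and 1786 (P12), and 2229 and 2108 (P24) normalized counts of Auh (ENSMUSG00000021460.18). Auh rose from P3 to P24 (2.48-fold, log2 change 1.31 ± 0.16 SE; limma, BH-adjusted p = 0.000294).

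In the valine and isoleucine arm 4 of 5 genes rose. Acadsb is the short branched-chain acyl-CoA dehydrogenase, Acad8 isobutyryl-CoA dehydrogenase, Hibch the hydrolase that frees hydroxyisobutyrate from CoA, Hibadh the dehydrogenase that oxidises it, and Aldh6a1 methylmalonate-semialdehyde dehydrogenase. Aldh6a1 (ENSMUSG00000021238.12) stood at 2116 and 2202 (P3), 1965 and 2233 (P6), 3478 and 2810.0 (P12), and 7306 and 6962 (P24) normalized counts. The P24 libraries lay above all others, of which the highest was P12 replicate 1 at 3478. Aldh6a1 rose from P3 to P24 (3.30-fold, log2 change 1.72 ± 0.15 SE; limma, BH-adjusted p = 4.19e-05). Aldh6a1 rose from P12 to P24 (2.28-fold, log2 change 1.19 ± 0.15 SE; limma, BH-adjusted p = 0.00117). For Acadsb (ENSMUSG00000030861.16), the normalized counts were 1792 and 1795 (P3), 1974 and 2423 (P6), 2778 and 2515 (P12), and 5564 and 5289 (P24). Acadsb rose from P3 to P24 (3.02-fold, log2 change 1.60 ± 0.15 SE; limma, BH-adjusted p = 5.55e-05). Acadsb rose from P12 to P24 (2.05-fold, log2 change 1.04 ± 0.15 SE; limma, BH-adjusted p = 0.00204). The libraries held 3416 and 3292 (P3), 3809.7 and 5259 (P6), 6932 and 6932 (P12), and 7884 and 7776 (P24) normalized counts of Hibadh (ENSMUSG00000029776.12). Hibadh rose from P3 to P24 (2.33-fold, log2 change 1.22 ± 0.17 SE; limma, BH-adjusted p = 0.000569). Hibch and Acad8 were highest at P12. Hibch (ENSMUSG00000041426.13) stood at 1546 and 1746 (P3), 1905 and 3349.6 (P6), 3451 and 3759.8 (P12), and 3253 and 3264 (P24) normalized counts. Hibch rose from P3 to P24 (1.98-fold, log2 change 0.99 ± 0.23 SE; limma, BH-adjusted p = 0.0101). The libraries held 1089.7 and 1244 (P3), 1036 and 1866 (P6), 1877 and 2014 (P12), and 1672 and 1668 (P24) normalized counts of Acad8 (ENSMUSG00000031969.17). The log2 change of Acad8 from P3 to P24 was 0.52 ± 0.24 (SE), which did not pass (limma, BH-adjusted p = 0.124).

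All 3 genes of the propionyl arm rose. Pcca and Pccb encode the subunits of propionyl-CoA carboxylase, and Mcee methylmalonyl-CoA epimerase. Pcca (ENSMUSG00000041650.16) stood at 960.0 and 881 (P3), 1014 and 1379 (P6), 2108 and 2129 (P12), and 2695 and 2953 (P24) normalized counts. Pcca rose from P3 to P24 (3.07-fold, log2 change 1.62 ± 0.17 SE; limma, BH-adjusted p = 0.000113). Pcca was also the one member that passed from P6 to P12. The libraries held 2533 and 2815 (P3), 2961 and 3514 (P6), 4349.8 and 4259.8 (P12), and 4800.1 and 4790.0 (P24) normalized counts of Pccb (ENSMUSG00000032527.14). Pccb rose from P3 to P24 (1.80-fold, log2 change 0.84 ± 0.14 SE; limma, BH-adjusted p = 0.00169). Mcee (ENSMUSG00000033429.11) stood at 1145 and 1252 (P3), 1231 and 2597 (P6), 2260.2 and 2388 (P12), and 2249 and 2364 (P24) normalized counts. The 2 P6 libraries of Mcee differed by about the size of its change from P3 to P24. Mcee rose from P3 to P24 (1.93-fold, log2 change 0.94 ± 0.29 SE; limma, BH-adjusted p = 0.0297).

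Between neighbouring stages few members passed. From P3 to P6 none of the 38 was called by limma, edgeR or DESeq2. Of all genes, limma called 0.84% (0.655% higher and 0.185% lower), edgeR 0.711% and DESeq2 3.66%. In limma, 7 of the 38 had an unadjusted p below 0.05, as did 15.2% of all genes. From P6 to P12, Pcca was called (log2 change 0.84 ± 0.17 SE, limma, BH-adjusted p = 0.0408), where 2.26% of all genes were called (0.996% higher and 1.26% lower), and 19 members had an unadjusted p below 0.05, as did 18.7% of all genes. DESeq2 called 13 members in that step and 6.22% of all genes. Those counts turned on the P6 libraries. Without P6 replicate 1, 25 members were called from P3 to P6, 23 higher and 2 lower (Ogdh and Pcx), where 31.7% of all genes were called. In the same fit 11 members, all higher, were called from P6 to P12, where 5.53% of all genes were. Without P6 replicate 2, 1 member, Ogdh, was called from P3 to P6, as higher, where 6.94% of all genes were called. That fit called 35 members from P6 to P12, 34 higher and Ogdh lower, where 40.9% of all genes were called. The direction of Ogdh thus reversed with the library kept: its log2 change was -0.47 without replicate 1 and 0.52 without replicate 2 from P3 to P6, and 0.49 and -0.50 from P6 to P12. From P3 to P12, 33 members had both P12 libraries above both P3 libraries, as did 35.3% of all genes. Pcx had both below, as did 40.4% of all genes, and Idh2, Ogdh, Dbt and Bckdk overlapped. The corresponding counts above were 15 members from P3 to P6 and 30 from P6 to P12, against 19.0% and 20.2% of all genes; 2 members lay below from P3 to P6, against 19.8%.

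From P12 to P24, 10 members rose and none fell, where 8.2% of all genes rose and 8.14% fell, 16.3% in all (limma, BH-adjusted p below 0.05). They were Pcx, Got1, Bcat2, Bckdha, Bckdhb, Dbt, Ivd, Mccc2, Acadsb and Aldh6a1, which makes 2 of the 21 cycle, entry and shuttle genes and 8 of the 17 branched-chain genes. The median log2 change was 0.13 in the former and 0.41 in the latter. Only Acadsb, Aldh6a1 and Pcx among the 10 kept the call in all 8 fits that leave out a library. Both P24 libraries lay above both P12 libraries for 14 of the 17 branched-chain genes and 11 of the 21 others, as for 40.2% of all genes, and below for 2 and 5, as for 35.9%. Without P12 replicate 1 or 2, 4 and 3 members were called, against 7.28% and 3.69% of all genes. Without P24 replicate 1 or 2, 3 members were called each time, against 4.68% and 5.25%. Without P6 replicate 1, replicate 2 or both, 18 members were called, 17 higher and Pdhb lower, against 43.0%, 42.9% and 43.2% of all genes. Scaled by total reads alone, the median of the 38 was -0.01 in this step.

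The share of the log2 change from P3 to P24 already present at P12 was described over the 33 genes that passed from P3 to P24. Its median was 57.0% in the 15 branched-chain genes and 78.0% in the 18 others. By role it was 93.5% in the cycle (11 genes, 2.3% to 133.8%), 81.6% in the propionyl arm (3 genes) and 80.6% in pyruvate entry (5 genes, -10.7% to 136.2%). It was 60.3% in the valine and isoleucine arm and 58.5% in the leucine arm (4 genes each). The shuttle had 46.7%, from Got1 and Got2 alone, and the first branched-chain steps 46.6% (4 genes). Of the genes left out because they did not pass, Acad8 stood at 142.3%, Mdh1 at 119.6% and Idh3g at 101.5%. Idh2 stood at 23.3% and Bckdk at -3.9%. By mean level, 14 of the 17 branched-chain genes were highest at P24 and 3 at P12 (Acad8, Hibch and Mcee). Of the 21 others, 14 were highest at P24, 6 at P12 (Pdhb, Pdhx, Idh3g, Suclg1, Fh1 and Mdh1) and Idh2 at P6. This difference between the groups was not tested.

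Ratios between 13 pairs of subunits or paralogous enzymes were compared across the 4 stages with an exact permutation F test over the 8 libraries. Its smallest possible p is 0.00952. The test and the log2 changes used the difference of log2(normalized count + 1) within each pair, and the ratios given by library are of FPKM. None of the 13 passed after BH adjustment, and 7 had an unadjusted p below 0.05. With 13 pairs, no pair could pass on its own even at the smallest possible p. The lack of calls therefore does not show that the ratios were unchanged. The ratio of Mccc2 to Mccc1 was 1.05 and 1.01 (P3), 1.13 and 1.06 (P6), 1.38 and 1.47 (P12), and 1.86 and 1.92 (P24). The Mccc2/Mccc1 ratio had a log2 change from P3 to P24 of 0.87 (exact permutation p = 0.00952, BH-adjusted p = 0.0619 over the pairs). The ratio of Bckdk to Bckdha was 2.17 and 1.83 (P3), 1.39 and 1.08 (P6), 0.972 and 1.05 (P12), and 0.520 and 0.591 (P24). The Bckdk/Bckdha ratio had a log2 change from P3 to P24 of -1.84 (exact permutation p = 0.00952, BH-adjusted p = 0.0619 over the pairs). The ratio of Sucla2 to Suclg2 was 3.84 and 3.35 (P3), 4.72 and 5.76 (P6), 7.35 and 6.61 (P12), and 5.62 and 5.82 (P24). The Sucla2/Suclg2 ratio had a log2 change from P3 to P24 of 0.67 (exact permutation p = 0.0190, BH-adjusted p = 0.0619 over the pairs). By stage mean, the first of these was higher at each later stage, the second lower at each, and the third highest at P12. The ratio of Pccb to Pcca was 4.96 and 6.01 (P3), 5.49 and 4.79 (P6), 3.88 and 3.76 (P12), and 3.35 and 3.05 (P24). The Pccb/Pcca ratio had a log2 change from P3 to P24 of -0.77 (exact permutation p = 0.0190, BH-adjusted p = 0.0619 over the pairs). The ratio of Bcat2 to Bcat1 was 26.6 and 55.6 (P3), 37.0 and 51.8 (P6), 71.0 and 82.2 (P12), and 252 and 226 (P24). The Bcat2/Bcat1 ratio had a log2 change from P3 to P24 of 2.61 (exact permutation p = 0.0476, BH-adjusted p = 0.0884 over the pairs). Bcat1 is the cytosolic aminotransferase and is not among the 38 genes. Its level was low, with means of 0.34 FPKM at P3 and 0.13 FPKM at P24. It held 113 and 63.3 normalized counts at P3 and 32.5 and 34.4 at P24. The ratio of Mdh2 to Mdh1 was 0.348 and 0.373 (P3), 0.416 and 0.215 (P6), 0.290 and 0.263 (P12), and 0.318 and 0.307 (P24). The Mdh2/Mdh1 ratio had a log2 change from P3 to P24 of -0.21 (exact permutation p = 0.733, BH-adjusted p = 0.733 over the pairs). The ratio of Pdhx to Dlat was 0.465 and 0.489 (P3), 0.391 and 0.676 (P6), 0.610 and 0.671 (P12), and 0.476 and 0.439 (P24). The Pdhx/Dlat ratio had a log2 change from P3 to P24 of -0.06 (exact permutation p = 0.457, BH-adjusted p = 0.540 over the pairs). In both of these last pairs the 2 P6 libraries spanned the values of all other libraries.

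**Figure D4:**
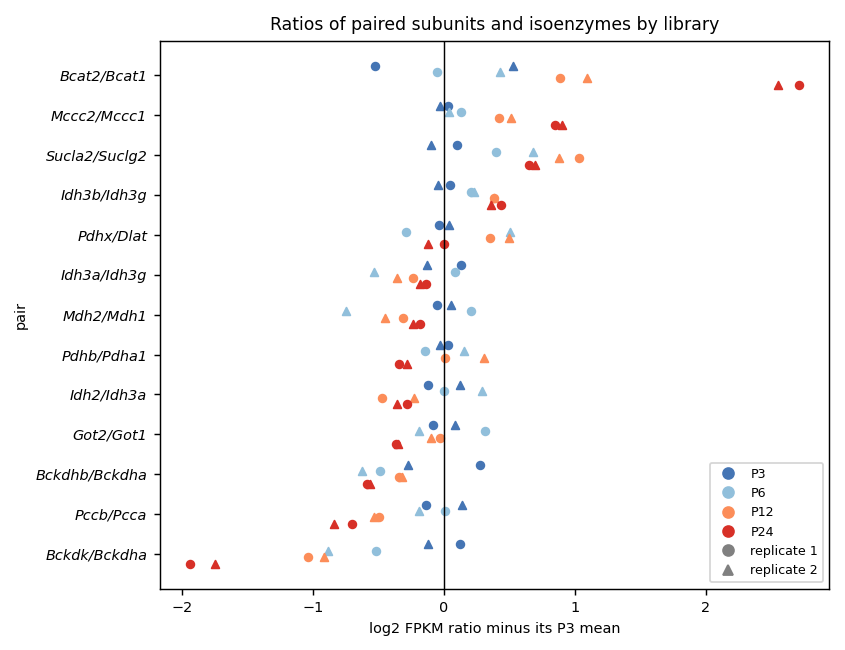
Log2 ratio of FPKM for the 13 pairs in each library, relative to the pair's P3 mean; colours mark stages, circles replicate 1 and triangles replicate 2. On the linear scale the ratio of Mccc2 to Mccc1 goes from 1.05 and 1.01 at P3 to 1.86 and 1.92 at P24, and Bckdk to Bckdha from 2.17 and 1.83 to 0.520 and 0.591.

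From P3 to P24, other genes of these pathways were called in both directions, where 18.7% of all genes tested rose and 18.2% fell. Of 33 further genes of pyruvate handling, the cycle and its carriers, 17 rose and 5 fell, with a median log2 change of 0.62. Ogdhl (an oxoglutarate dehydrogenase paralog) rose by 3.23, Mpc1 (a mitochondrial pyruvate carrier subunit) by 2.01 and Pdp2 (a pyruvate dehydrogenase phosphatase) by 1.91, while Pdk3 (a pyruvate dehydrogenase kinase) fell by 3.08, Slc25a10 (the dicarboxylate carrier) by 0.97 and Me2 (mitochondrial malic enzyme) by 0.68. Of 23 further branched-chain and ketone-related genes, 11 rose and 3 fell, with a median of 0.50. Among them Oxct1, the ketone-body-using transferase, rose by 2.46, Ppm1k, the phosphatase that switches the ketoacid complex on, by 2.04 and Mmut, methylmalonyl-CoA mutase, by 1.57. Slc7a5, a plasma membrane transporter of large neutral amino acids, fell by 1.97, Bcat1 by 1.31 and Slc43a1, another such transporter, by 0.97. Of 11 transcriptional regulators of oxidative metabolism, 5 rose and none fell, with a median of 0.50; they included Esrrb at 1.79, Klf15, a factor known to act on branched-chain genes in muscle and heart, at 1.5, and Perm1 at 1.30.

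Cell type markers were followed in the same comparison, P3 to P24, where 18.7% of all genes tested rose and 18.2% fell. The 10 cardiomyocyte markers summed to between 1175440 and 1385590 normalized counts from P3 to P12 and to 1575460 and 1827940 at P24. Of them 3, Tnni3, Pln and Myoz2, were called, all higher, and the median log2 change of the 10 was 0.36. By sign alone, 6 of the changes were positive and 4 negative, the lowest being -0.37. The 8 fibroblast markers summed to between 143023 and 224780 at P3 and between 62343 and 64424 at P24, with 1 gene higher and 5 lower. Of 6 macrophage markers 5 rose, of 6 endothelial markers none was called, and of 5 mural cell markers 2 rose and 1 fell. The 4 atrial markers summed to 10799 and 4046 normalized counts at P3 and 2388 and 4289 at P6. Their sums were 804 and 1709 at P12 and 3058 and 2924 at P24. No atrial marker was called from P3 to P24, and 1 rose from P12 to P24, where 8.2% of all genes rose. Of the 3 ventricular markers, Myl2 was at 177344 to 308396 in all libraries with a log2 change of 0.03 that did not pass, Myl3 rose by 0.88 and Irx4 fell by 0.58 on the log2 scale. The 5 adipocyte markers summed to between 713 and 1251 normalized counts, nearly all of it Cidea, which stood at 702 to 1250.4. Cidea had a log2 change of -0.32 from P3 to P24, which did not pass, and fell by 0.79 from P12 to P24 (limma, BH-adjusted p = 0.0417). Ucp1 was at 0 in every library, and Adipoq, Plin1 and Retn reached at most 4.06. The part of cell composition in the changes of the 38 genes was not tested. Reads of mitochondrially encoded genes were 9.64% and 10.7% of the library at P3 and 18.8% and 19.0% at P24. Of the remaining reads, the 38 genes took 1.70% ± 0.0917 at P3, 2.48% ± 0.0016 at P12 and 2.60% ± 0.0245 at P24 (SD, n = 2). Of all reads they took 1.53% ± 0.0696 at P3, 2.18% ± 0.0429 at P12 and 2.11% ± 0.0165 at P24 (SD, n = 2).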

How the data were processed

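Poly(A) RNA libraries of whole ventricle were sequenced at 4 postnatal stages with 2 libraries each. The build GRCm39, DESeq2 1.32.0, HTSeq 0.11.2, Trim Galore 0.6.4 and STAR 2.7.3a are named in the submitters' processing notes, with no role given; the annotation release and strand setting are not given in the sources used here. Per the file headers, the deposited table holds a normalized count per gene, treated here as a signal, and FPKM. Each library's smallest step, taken as 1 read, gave whole reads for 100% of values at a tolerance of 0.001. Within a gene the deposited FPKM kept a fixed ratio to the deposited signal, so FPKM served to compare levels between genes.

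Genes with a normalized count of 10 or more in at least 2 libraries (14055) were tested on log2(value + 1) with limma 3.58.1 in R 4.3.3, with a trended prior, all 8 libraries in 1 fit and stage as the only term. Fold changes are on that scale. P-values were BH-adjusted over all genes tested. The fits were tested on simulated data. Alternatives used edgeR 4.0.16 and DESeq2 1.42.0 on the recovered reads. The genes named are the 38 members and those of lists chosen with earlier results of these data known. Genes of near-identical copies, and genes that overlap others, are uncertain where counting could split reads.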

Additional observations from a re-analysis of the deposited data

How the results depend on the processing

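From P3 to P24 the count of members called was 33, between 23 and 36 under the other settings and 20 to 36 with 1 library left out; no call reversed. Scaling by total reads moved the median of all genes to -0.36 (log2) and the members' to 0.65. Quantile and total-read scaling each left 23 calls, where 36.4% and 46.4% of all genes were called. Over the settings other than a left-out library, that share ranged from 29.5% without the filter to 55.9% without both P6 libraries. Of the 33 calls, 21 held under every setting other than a left-out library, and of the 10 from P12 to P24, 9 did, Bcat2 being the exception. From P6 to P12 the 1 call became 2 with quantile scaling, 0 without the filter, 13 with DESeq2, 3 with the replicate block, 3 with a term for Y-linked reads and 7 with a length trend, and ranged from 0 to 35 with 1 library left out. From P12 to P24 the 10 calls became 18 without both P6 libraries and ranged from 3 to 18. From P3 to P6 the range was 0 to 25, across all stages (27 calls, 34.9% of all genes) 17 to 37 (17 without P3 replicate 1 or either P24 library), and for the pair ratios (0 calls) 0 to 8 (8 without P6 replicate 2, 5 without P3 replicate 1, 3 without either P24 library). Across all stages, the share of all genes called moved the same way as the members' count. It was below 34.9% in the fits at the low end of that range. It was above 34.9% in the fit at the high end, which left out P6 replicate 2. The range across all stages was therefore not particular to the members. The share of all genes called from P6 to P12 was 2.26%, and moved with the settings as well. It was 2.42% with quantile scaling, 1.07% without the filter and 6.22% with DESeq2. With the replicate block it was 3.64%, with a term for Y-linked reads 3.13% and with a length trend 4.27%. The cause of the shifts in these counts was not tested. Deviations of same-numbered libraries correlated at 0.14, 0.16 and 0.32 among P3, P6 and P12, and at 0.03, -0.13 and -0.14 between these stages and P24. Since not all were positive, the replicate numbers were not taken as pairing the libraries. With the replicate block, 34 members were called from P3 to P24, 11 from P12 to P24 and 30 across all stages. Of all genes, 39.9%, 20.9% and 41.9% were called there. Each stage rests on 2 libraries, which limits every test.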
